A study of Mus musculus with 11 samples.

Results

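The distal H3.3-rich windows were 5000 stretches of 1 kb that lay over 5 kb from every annotated transcription start site (TSS) and held the most tagged H3.3 in mouse embryonic stem (ES) cells. Chromosomes 1 to 19 of the mm9 build hold 2472334 windows of this size, of which 2047550 lay over 5 kb from any TSS of the GENCODE vM1 annotation. Each window was ranked by the number of sequenced fragments whose midpoint fell in it, added over the HA-H3.3 libraries from 3 and 6 hours of doxycycline (Dox). Windows with 18 or more midpoints in the anti-HA library from cells without Dox were left out, as were the 249 of 24731 tiles of 100 kb with 650 or more such midpoints, which left 2031871 windows to rank. The 5000 members held 48 to 210 HA-H3.3 midpoints with a median of 59, against a median of 5 over all windows ranked. At the lower limit, 146 members held 48 midpoints, 187 windows with the same number were not taken, and the next windows held 47. The members were chosen by HA-H3.3 midpoints, so the H3.3 level in them is given as a description only. The 6 hour library supplied 77.7% of the H3.3 midpoints in the members. When windows were ranked by the 6 hour library alone, 89.5% were again members, and the 3 hour library, which had then played no part in the choice, held 5.61 times its mean over distal windows in them. When they were ranked by the 3 hour library alone, 58% were members, and the 6 hour library held 10.8 times its distal mean.

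The study followed histone variants as they entered chromatin in cells that express a tagged copy on demand. KH2 ES cells carry the M2rtTA transactivator at the ROSA26 locus and an HA-tagged histone under a TetO promoter at the Col1a1 locus, so that Dox at 2 µg/ml starts synthesis of HA-H3.3 or of HA-tagged MacroH2A2 (HA-Macro). Chromatin was precipitated with anti-HA from ES cells expressing HA-H3.3 for 3 or 6 hours, from HA-Macro ES cells without Dox or after 3, 6 or 12 hours, and from HA-Macro mouse embryonic fibroblasts (MEFs) after 3, 6 or 12 hours. The MEFs were grown from E12.5 chimeric embryos made by blastocyst injection of the ES cells and were selected with puromycin, and an antibody to MacroH2A2 itself gave 1 library from ES cells and 1 from MEFs. ES cells were grown on feeder fibroblasts that were depleted by pre-plating, so that some feeder chromatin may remain in the ES libraries, and the tagged histones came from an added transgene beside the endogenous genes. The Dox state of the cells used for anti-MacroH2A2 is described differently by the sources, and only antibody and cell type were used here.

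H3.3 is the histone H3 variant that is deposited outside DNA replication, and it collects at promoters, gene bodies and the distal elements, enhancers among them, where nucleosomes are replaced often. MacroH2A2 is a variant of H2A with a large globular macro domain, best known from the inactive X chromosome and silent genes. Its level in a window reflects both how fast it is put in and how fast it is removed, and a tagged copy that appears early at a place shows where the newly made protein goes first.

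There was 1 library for each of the 11 conditions, and each anti-MacroH2A2 library combined 2 replicates that cannot be separated, so no difference could be set against a spread between replicates and no p-value is given. The libraries held 6488112 to 20541627 mapped fragments. All levels are given in p.p.m. per window, the share of a library's midpoints on chromosomes 1 to 19 that fell in a window. Brackets give 95% exact intervals, Poisson for levels and Clopper-Pearson for ratios and shares, which cover counting error only. The HA-Macro ES 3 hour library had 0.112% of its distinct fragments on the Y chromosome, against 0.0198% to 0.0244% in the other HA-Macro libraries, so its leading ratios are also given from 6 hours on. The share was also above that range in the HA-H3.3 libraries that chose the members (0.102% at 3 hours and 0.0673% at 6 hours) and in the anti-MacroH2A2 libraries (0.1002% in ES cells and 0.0423% in MEFs). Whether this share has any part in the results was not tested.

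Sequences are given for the member with the most H3.3 among those nearest a pluripotency gene (Socs3) and for members near Nanog, Sox2, Sall1 and Klf4, because the distal elements of these genes are best known in ES cells. Each stretch is 300 bases of its window, read from the NCBIM37 genome (mm9) on the plus strand. Where the window held a searched motif, only stretches with a match were considered. Of the stretches considered, the one with the most H3.3 midpoints was taken, so the matches shown were part of the choice. Capitals mark a match on the minus strand to the octamer (ATTTGCAT, bound by Oct4), to the Esrrb site (TCAAGGTCA) or to the KLF site (GGGTGTGGC). None of the 5 windows overlaps its gene.
Socs3, chr11:117837291-117837590, octamer in capitals: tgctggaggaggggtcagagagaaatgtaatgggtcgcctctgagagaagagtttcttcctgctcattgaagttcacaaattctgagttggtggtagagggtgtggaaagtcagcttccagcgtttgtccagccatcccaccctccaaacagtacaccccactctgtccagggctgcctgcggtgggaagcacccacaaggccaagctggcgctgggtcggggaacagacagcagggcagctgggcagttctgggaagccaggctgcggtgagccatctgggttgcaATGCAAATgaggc
Nanog, chr6:122665031-122665330, no match: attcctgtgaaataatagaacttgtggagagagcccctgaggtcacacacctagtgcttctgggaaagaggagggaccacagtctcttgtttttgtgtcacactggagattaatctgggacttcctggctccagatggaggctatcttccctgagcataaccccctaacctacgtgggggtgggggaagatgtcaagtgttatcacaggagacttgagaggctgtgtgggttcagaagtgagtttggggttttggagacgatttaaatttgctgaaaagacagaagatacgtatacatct
Sox2, chr3:34659491-34659790, Esrrb site in capitals: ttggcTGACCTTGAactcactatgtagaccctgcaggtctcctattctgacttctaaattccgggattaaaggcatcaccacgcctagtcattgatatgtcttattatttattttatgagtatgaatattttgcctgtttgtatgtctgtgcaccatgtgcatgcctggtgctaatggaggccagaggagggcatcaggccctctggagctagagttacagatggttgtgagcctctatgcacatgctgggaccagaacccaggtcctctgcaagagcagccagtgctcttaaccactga
Sall1, chr8:91531111-91531410, octamer in capitals: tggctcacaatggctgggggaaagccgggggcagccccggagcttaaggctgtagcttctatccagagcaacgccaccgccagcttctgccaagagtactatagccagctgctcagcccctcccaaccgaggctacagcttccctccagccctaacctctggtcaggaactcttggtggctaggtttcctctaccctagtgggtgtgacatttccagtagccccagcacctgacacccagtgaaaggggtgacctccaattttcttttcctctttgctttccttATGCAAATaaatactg
Klf4, chr4:55527701-55528000, KLF site in capitals: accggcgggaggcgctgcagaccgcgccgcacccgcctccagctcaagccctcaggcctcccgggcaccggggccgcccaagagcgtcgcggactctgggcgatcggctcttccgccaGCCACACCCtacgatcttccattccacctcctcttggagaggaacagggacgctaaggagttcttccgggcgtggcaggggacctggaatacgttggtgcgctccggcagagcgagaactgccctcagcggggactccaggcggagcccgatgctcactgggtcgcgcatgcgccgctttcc

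Socs3 encodes the inhibitor of the LIF receptor pathway that ES cells use to stay pluripotent. Its window, 6.14 kb from the gene's TSS, ranked 6 by H3.3 with 179 midpoints, and in ES cells it held 13 HA-Macro midpoints without Dox and 32, 22 and 17 after 3, 6 and 12 hours. Scaled to the libraries, the 12 hour level was lower than the 3 hour level (log2 ratio −1.03, −1.97 to −0.14). The window near Nanog, 7.99 kb from its TSS, held 14, 17, 17 and 6 midpoints in the same order (log2 12 over 3 hours −1.62, −3.25 to −0.21). The library without Dox held 12081647 midpoints on chromosomes 1 to 19, against 16822131 at 3 hours and 18253266 at 12 hours. Scaled to these totals, the Nanog window was no higher at 3 hours than without Dox, and lower at 12 hours. The window near Sall1, which encodes a zinc finger factor of ES cells, held 3, 25, 11 and 10 (−1.44, −2.66 to −0.33). The window near Sox2 lay 111 kb from that TSS and held 7, 19, 14 and 12, with an interval that includes 0 (−0.78, −1.96 to 0.34). The Klf4 window held only 8, 3, 10 and 9, too few to give a direction.

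Motifs were then counted in all members. The search took exact letters on either strand of each 1 kb window, and a match is a description of the letters, not a bound site. In the 4997 members without unassigned bases, 7.42% held the octamer, 4.28% the SOX site CCATTGTT, 4.88% the Esrrb site, 5.88% the KLF site, 21.4% the AP-1 site TGACTCA and 4.30% a CTCF core (CNAGGGGGC). Over all distal windows these shares were 8.85%, 5.72%, 2.07%, 1.26%, 14.8% and 1.23%, so the octamer and the SOX site were less frequent in the members than in distal windows at large.

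Base composition differed between these sets and moved the comparison. Members averaged 51.3% G+C and 19.2 CpG dinucleotides, against 41.3% and 7.66 in all distal windows. Among windows of 50 to 55% G+C, the octamer was found in 7.05% of members (5.98% to 8.24%) and 3.07% of other windows, the SOX site in 4.42% and 3.05%, the Esrrb site in 5.05% and 2.76%, the KLF site in 6.71% and 3.42%, and the AP-1 site in 22.4% and 16.6%. In the band of 45 to 50% G+C the SOX site was in 4.72% of members (3.74% to 5.86%) and 4.10% of other windows, which the interval includes. For the CTCF core at 50 to 55% G+C the shares were close, 4.52% (3.66% to 5.51%) and 3.84%. The 5000 windows ranked just after the members held the octamer in 7.12% and the KLF site in 5.02%, averaged 49.9% G+C, and held 40 or more CpG dinucleotides in 3.92%.

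By position, 15.7% of members overlapped an exon, 36.8% lay in introns and 47.5% between genes, against 5.97%, 31.2% and 62.8% of all distal windows. The median member was 14.7 kb from the nearest TSS, and the median distal window 42.9 kb. A CpG count of 40 or more, as in a CpG island, was found in 6.66% of members and 0.234% of distal windows. Members therefore lay closer to genes and held more exons and CpG dinucleotides than the windows they are compared with.

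The share of the HA-Macro libraries that fell in the members was high early and lower later in ES cells. These are shares and not amounts, and a smaller share in the members cannot be told apart from more tagged histone elsewhere. The mean level, 0.497 p.p.m. per window without Dox, was 1.02 in the 3 hour library and then lower, at 0.859 in the 6 hour and 0.690 in the 12 hour library. Over all distal windows the level hardly moved, so that the members stood above them by a log2 ratio of 0.37, 1.49, 1.21 and 0.88 in the same order. Per window, the median member held 6 midpoints in cells lacking Dox (0 to 17), and with Dox 16 by 3 hours (1 to 125), 13 by 6 hours (1 to 203) and 11 by 12 hours (0 to 226), and the ranges of the libraries overlap.

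Against the library without Dox, which measures what anti-HA brings down before induction (whether that includes tagged protein made without Dox was not tested), members were higher by a log2 ratio of 1.04 at 3 hours (1.02 to 1.06), 0.79 at 6 hours and 0.47 at 12 hours. All distal windows gave −0.08, −0.05 and −0.04, and the 5000 windows ranked just after the members gave 0.96, 0.81 and 0.53. The no-Dox library was also used to leave out windows, which caps its own level in the members at 17 midpoints.

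From 3 to 12 hours the summed level in the members was lower by a log2 ratio of −0.57 (−0.58 to −0.55), and from 6 to 12 hours by −0.32 (−0.33 to −0.30). Over all distal windows these ratios were 0.04 and 0.01, and in the 5000 windows ranked just after the members −0.43 and −0.27. At the 19827 windows that hold the TSS of a protein-coding gene they were −0.54 and −0.25, so the ratio from 3 to 12 hours was of similar size in the members and at promoters. The promoter windows were not chosen by H3.3, and their median was 14 HA-H3.3 midpoints at 6 hours, against 46 in the members. A selected set is thus set beside a whole class. The 6 hour level lay between the other levels in the members, −0.25 below the 3 hour level on the log2 scale.

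In MEFs the same windows stayed level. HA-Macro measured 0.712 p.p.m. per window at 3 hours, then 0.721 and 0.700 after 6 and 12 hours, above the distal mean by a log2 ratio of 0.85, 0.86 and 0.80. The ratio of 12 over 3 hours was −0.02 (−0.04 to −0.01), and that of 12 over 6 hours −0.04. At 3 hours MEFs held less than ES cells (log2 MEF over ES −0.53, against 0.12 over all distal windows), whereas at 12 hours the cell types were at a ratio of 0.02, against 0.10. The ES cells and MEFs differ in line history and in culture as well as in cell type, and these cannot be told apart here. The windows were chosen by HA-H3.3 of ES cells, and no library measured H3.3 in MEFs. The MEF values therefore do not describe windows rich in H3.3 in MEFs.

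The antibody to MacroH2A2 itself gave 0.778 p.p.m. per window in ES cells and 0.661 in MEFs, above the distal mean by a log2 ratio of 0.99 and 0.68. The median member held 5 midpoints in ES cells (0 to 87) and 8 in the deeper MEF library (0 to 181). Members were lower in MEFs by −0.24 (−0.26 to −0.22), against 0.08 over all distal windows and −0.70 at promoter windows.

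The shape of the signal around the members changed more in ES cells than in MEFs. The 1 kb at the centre stood above the flanks from 5 to 10 kb away by a log2 ratio of 0.47 after 3 hours, 0.28 after 6 hours and 0.08 after 12 hours, and by 0.16 in cells without Dox. In MEFs the ratio was 0.32, 0.33 and 0.28, the last being lower than the 6 hour value beyond counting error, and with anti-MacroH2A2 it was 0.29 (ES) and 0.31 (MEF). The flanks themselves were 1.03 above the distal mean on the log2 scale at 3 hours and 0.81 at 12 hours, against 0.22 without Dox. The members thus sat in broader regions of high signal, and by 12 hours the centre stood little above its surroundings. These flanks are not free of other features. A TSS lay 5 to 10 kb from 1643 members, and promoter windows held 0.823 p.p.m. at 3 hours. How much promoters add to the flanks was not tested.

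A closer measure gave the same order. The central 400 bases over the shoulders from 1 to 2.5 kb in ES cells had a log2 ratio of 0.36 after 3 hours, 0.12 after 6 hours and −0.01 (−0.03 to 0.01) after 12 hours. Without Dox it was 0.21, above the values at 6 and 12 hours, so the central rise without Dox was not seen at 12 hours. In MEFs it was 0.27 (0.25 to 0.30), 0.27 and 0.22 (0.20 to 0.24). Since 1845 members had another member directly beside them, the shoulders include part of other members.

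**Figure D1:**
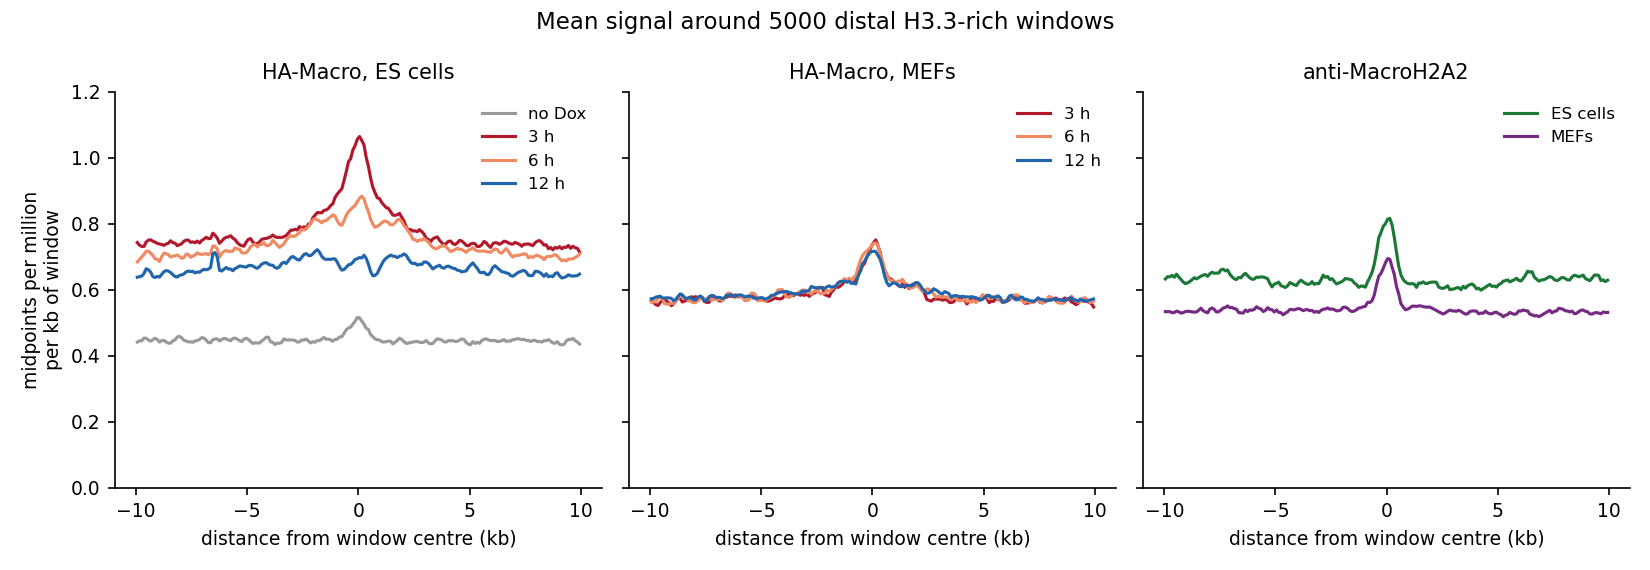
Mean level of midpoints around the 5000 distal H3.3-rich windows, in p.p.m. per kb, against the distance from the window centre in kb, with 1 line for each library. In ES cells the central rise is highest at 3 hours and nearly gone at 12 hours, where the centre stands 0.08 above the 5 to 10 kb flanks on the log2 scale, whereas the MEF lines lie close together (0.32, 0.33 and 0.28).

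Because G+C content affects how many reads a window yields, the members were compared with other distal windows of the same G+C band (up to 45%, 45 to 50%, 50 to 55% and over 55%, with 370, 1634, 2058 and 938 members). At 3 hours in ES cells, members stood above the others in each band by a log2 ratio of 1.44, 1.00, 0.83 and 0.69. At 12 hours this was 0.88, 0.26, 0.13 and 0.10, and without Dox 0.27, 0.17, 0.13 and 0.15. In the bands above 50% G+C, which hold most members, the excess at 12 hours was thus no larger than without Dox.

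In MEFs at 12 hours the excess within bands was 0.42, 0.14, 0.11 and −0.08. For anti-MacroH2A2 it was 0.43, 0.03, 0.02 and 0.25 in ES cells, and 0.40, 0.11, 0.11 and 0.18 in MEFs. In the bands from 45 to 55% G+C, the members' elevated steady-state level over distal windows shrank to 0.11 or less once windows of like G+C were compared. What G+C contributes beside other features of the windows was not tested.

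The difference between 12 and 3 hours was seen in every band. Members had log2 ratios of −0.58, −0.55, −0.54 and −0.63, and the other windows of these bands −0.02, 0.19, 0.15 and −0.04. Measured from 6 to 12 hours, the members had −0.32, −0.33, −0.30 and −0.32, and the others −0.03, 0.10, 0.08 and −0.01. For anti-MacroH2A2 in MEFs over ES cells, in contrast, the members had 0.12, 0.10, −0.16 and −0.64 and the others 0.16, 0.02, −0.25 and −0.57. Members and others differed beyond counting error in the 3 bands above 45% G+C, members being higher in the first 2 of these and lower in the last. In both sets the ratio was lowest in the band of highest G+C.

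**Figure D2:**
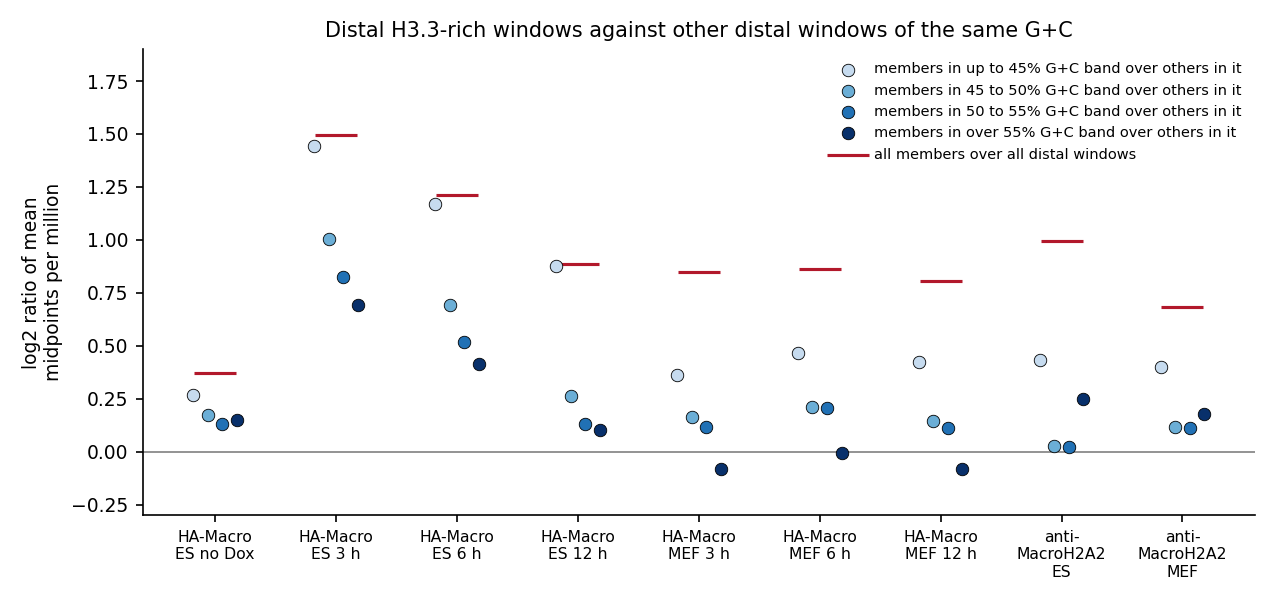
Log2 ratio of the mean p.p.m. in members over other distal windows, for each HA-Macro and anti-MacroH2A2 library. Points give members against other windows of the same G+C band, from light (up to 45%) to dark (over 55%), and the red bar gives all members against all distal windows. At 3 hours in ES cells every point lies at 0.69 or higher, whereas at 12 hours the bands above 50% G+C lie at 0.13 and 0.10.

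Single windows were compared where both libraries together held at least 20 midpoints, and a window was counted as changed at a 2-fold scaled ratio or more. In ES cells 1315 of 4040 members (32.5%) were at least 2-fold lower at 12 than at 3 hours, against 14.5% of all distal windows that passed the minimum, and 82 members (2.03%) were higher, against 16.2%. From 6 to 12 hours 435 of 3469 members (12.54%) were lower, against 4.82%, and 34 (0.980%) were higher, against 6.76%. Of the 5000 windows ranked just after the members, 26.7% of those that passed were lower from 3 to 12 hours and 10.8% from 6 to 12 hours. Promoter windows gave 35.9% and 12.0%. The minimum of 20 favours windows with a high level in either library, so the counts describe only the members that passed it. The median log2 ratio of 12 over 3 hours was −0.62 in these members and 0.10 in distal windows, and 81.0% of members lay below 0 against 46.3%.

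In MEFs 95 of 2298 members (4.13%) were lower at 12 than at 3 hours, against 3.98% of distal windows, and 131 (5.70%) were higher, against 8.15%. For anti-MacroH2A2 252 of 1217 members (20.7%) were lower in MEFs than in ES cells, against 9.35%, and 92 (7.56%) were higher, against 16.3%. Within the band over 55% G+C, however, 30.3% of members and 28.5% of other windows were lower in MEFs. In ES cells from 3 to 12 hours the share lower was 39.6%, 33.9%, 30.7% and 32.5% of members from the lowest to the highest G+C band, and 17.8%, 11.7%, 10.7% and 11.7% of other windows.

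**Figure D3:**
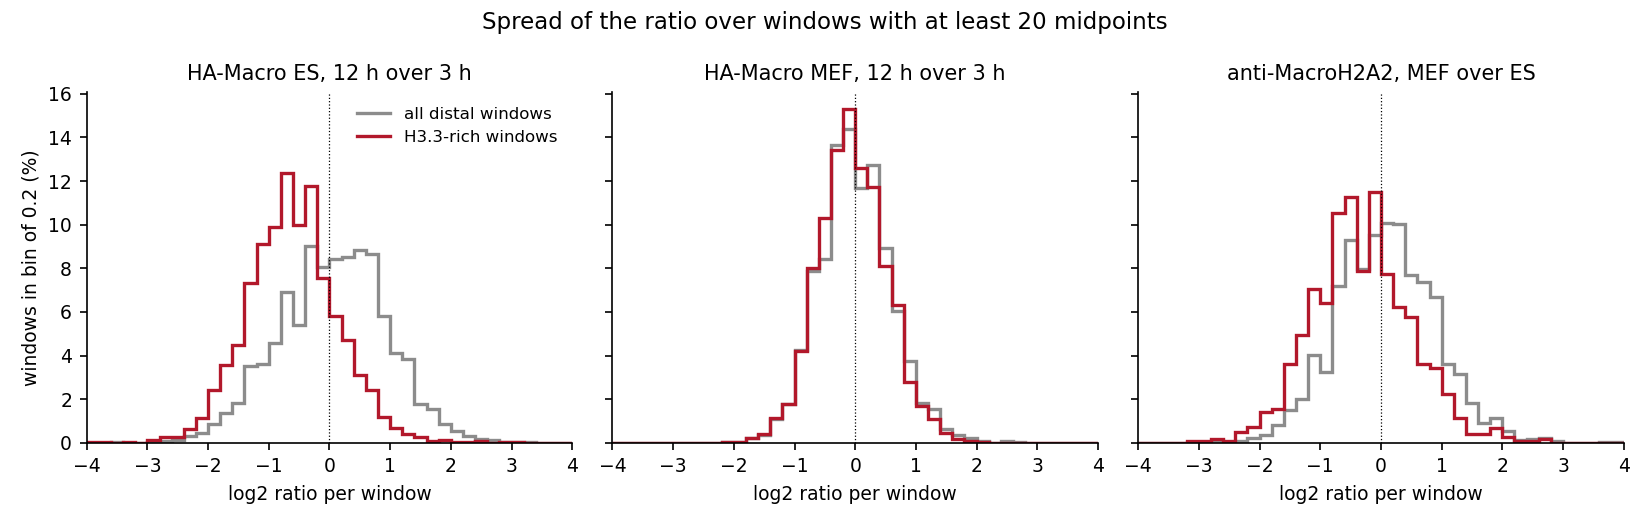
Share of windows in each bin of 0.2 of the log2 ratio, for members (red) and all distal windows (grey) with at least 20 midpoints in both libraries together. In ES cells the members are displaced to lower ratios (median −0.62 against 0.10), whereas in MEFs the outlines nearly coincide (median −0.06 against −0.04).

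Among the members, the ratio of 12 over 3 hours in ES cells varied with place. Other distal windows varied in the same order by location, and by distance up to 100 kb. In the members, the ratio from 6 to 12 hours did not vary in the same way. Exonic members had −0.76, intronic members −0.69 and members between genes −0.39, each below the other distal windows of that kind, which had −0.33, −0.14 and 0.20. The members had −0.28, −0.33 and −0.32 from 6 to 12 hours. By distance from a TSS the ratio was −0.63 at 5 to 10 kb, −0.59 at 10 to 25 kb, −0.52 at 25 to 50 kb and −0.50 at 50 to 100 kb. Other distal windows of these bands had −0.05, 0.01, 0.06 and 0.10, in the same order. The members of these bands had −0.29, −0.32, −0.34 and −0.35 from 6 to 12 hours, in the opposite order up to 100 kb. The 146 members over 100 kb away had −0.11 (−0.20 to −0.02), against 0.08 in other windows, and −0.22 from 6 to 12 hours, the value nearest 0 of the 5 bands at both spans. By H3.3 rank it went from −0.68 in the 1000 members with the most H3.3 to −0.45 in the last 1000, whereas from 6 to 12 hours the 5 classes of 1000 had −0.31, −0.36, −0.34, −0.30 and −0.27. On each of the 19 chromosomes the ratio was below 0, from −0.31 on chromosome 5 to −0.72 on chromosome 13, and from 6 to 12 hours it lay between −0.23 and −0.42.

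The members were also compared by their steady-state level. The 2233 members with 0 to 4 anti-MacroH2A2 midpoints in ES cells had a 12 over 3 hour ratio of −0.69, the 1822 with 5 to 9 had −0.57, and the 771 with 10 to 19 had −0.56. The 174 members with 20 or more had −0.03 (−0.08 to 0.03), and they include the 6 members with the most HA-Macro at 12 hours, described below. Without them the other 168 had −0.29 (−0.34 to −0.23). The 6 were picked by their 12 hour level, so leaving them out favours a lower ratio, and other distal windows were not trimmed in this way. From 6 to 12 hours the 4 classes had −0.36, −0.34, −0.30 and −0.06 (−0.12 to −0.01), the last being −0.18 without the 6 members. From 3 to 12 hours other distal windows of these classes had −0.02, 0.16, 0.31 and 0.41, so the members lay below them in each class. At 3 hours over no Dox the members gave 1.01, 1.01, 1.11 and 1.17. The class with the most anti-MacroH2A2 held more CpG dinucleotides (a mean of 44.6 against 14.7 in the lowest class) and more exonic windows (50.0% against 8.73%).

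Many members lay side by side. Joining members with at most 12 kb between them gave 3062 clusters, of which 2030 held 1 member, 926 held 2 to 4, 89 held 5 to 9 and 17 held 10 or more. The HA-Macro ratio of 12 over 3 hours in ES cells was −0.43 in single members, −0.62 in clusters of 2 to 4, −0.81 in clusters of 5 to 9 and −0.74 in the largest. They were closer together from 6 to 12 hours, at −0.29, −0.33, −0.38 and −0.33. Of the 106 clusters of 5 or more, 101 lay below 0 and 90 had an interval wholly below 0, with a median of −0.81. From 6 to 12 hours 103 lay below 0 and 44 had such an interval. Of 2028 single members with midpoints at both times, which hold fewer midpoints each, 1543 lay below 0 from 3 to 12 hours and 394 had such an interval, and from 6 to 12 hours 1447 and 149. The median over these single members was −0.60 from 3 to 12 hours, lower than their summed ratio, and −0.33 from 6 to 12 hours. In MEFs 57 of the 106 clusters of 5 or more lay below 0 from 3 to 12 hours, with a median of −0.03.

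The largest cluster held 16 members within Ahdc1, a gene for an AT-hook protein, at chr4:132577001-132614000. In ES cells its HA-Macro midpoints numbered 132 before Dox and 405, 242 and 222 after 3, 6 and 12 hours, and in MEFs 75, 80 and 136. The log2 ratio of 12 over 3 hours was −0.99 (−1.23 to −0.75) in ES cells and −0.01 (−0.43 to 0.42) in MEFs, and in ES cells from 6 to 12 hours it was −0.21. The anti-MacroH2A2 level was lower in MEFs there (122 midpoints in ES cells, 117 in MEFs, log2 −0.84).

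The cluster near Trim71, which encodes an RNA-binding ubiquitin ligase of early embryos, held 13 members at chr9:114412001-114467000. Its midpoints numbered 74, 273, 148 and 118 in ES cells and 83, 81 and 174 in MEFs. The ratio was −1.33 (−1.65 to −1.01) in ES cells, where it was −0.42 (−0.78 to −0.06) from 6 to 12 hours, and 0.20 (−0.18 to 0.60) in MEFs. The 11 members within Ptprf, a receptor tyrosine phosphatase gene, had 76, 280, 189 and 129 in ES cells and a ratio of −1.24, which from 6 to 12 hours was −0.64. The 13 members near Commd7 had 84, 195, 216 and 177, highest at 6 hours, and their ratio of −0.26 had an interval that includes 0 (−0.56 to 0.04). Of the 10 largest clusters, the others being nearest Wasf2, Ptma, 6430527G18Rik (2 clusters), Il17b and Cxxc5, all 10 lay below 0 in ES cells and 9 had an interval wholly below 0, whereas every MEF interval included 0. From 6 to 12 hours all 10 were again below 0 in ES cells, but only 5 had an interval wholly below 0, those near Commd7, Trim71, 6430527G18Rik (both clusters) and Ptprf.

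The genes next to members were counted in lists of 40 pluripotency and 40 fibroblast genes. A member had as its nearest protein-coding gene 27 of the 38 pluripotency genes annotated on chromosomes 1 to 19 (71.1%), 2 of the 40 fibroblast genes (5.00%) and 2444 of all 21418 protein-coding genes (11.4%). H3.3 of ES cells chose these windows, so the shares describe the choice. The 86 members next to pluripotency genes had an ES level of 0.511 p.p.m. per window without Dox and 0.997, 0.783 and 0.593 after 3, 6 and 12 hours. Their 12 over 3 hour ratio was −0.75 (−0.87 to −0.63) in ES cells, −0.40 from 6 to 12 hours, and 0.08 (−0.06 to 0.21) in MEFs. Gene by gene, 23 of the 27 lay below 0 and 14 had an interval wholly below 0, with a median of −0.75, and from 6 to 12 hours these were 23 and 5. Over all 2442 genes with midpoints at both times, 1984 (81.2%) lay below 0 and 806 had an interval wholly below 0, with a median of −0.62. Measured from 6 to 12 hours, these were 1852 and 297. The 3 members next to fibroblast genes, 2 near Meox1 and 1 near Snai1, had −0.04 together (−0.72 to 0.64). From 6 to 12 hours both of these genes lay below 0 (median −0.44), with intervals that include 0.

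Within the pluripotency list, Sall1 with 11 members and Esrrb with 9 had the most. Esrrb encodes an orphan nuclear receptor of naive ES cells, and all 9 of its members lay within the gene. Without Dox they held 49 HA-Macro midpoints, and after 3, 6 and 12 hours of Dox 157, 99 and 70 in ES cells and 70, 48 and 111 in MEFs. Scaled to the libraries, their ES level was 0.451 p.p.m. per window without Dox and 1.04, 0.641 and 0.426 after 3, 6 and 12 hours. The 12 hour level was thus no higher than that without Dox. The ratio of 12 over 3 hours was −1.28 (−1.71 to −0.87) in ES cells and −0.20 (−0.65 to 0.25) in MEFs, and 12 over 6 hours in ES cells gave −0.59. The Sall1 members held 70, 217, 153 and 121 in ES cells and 86, 67 and 139 in MEFs (ES ratio −0.96, −1.29 to −0.63). Their level in ES cells was 1.17 p.p.m. per window at 3 hours, 0.811 at 6 hours and 0.603 at 12 hours.

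Nanog, the homeobox factor of pluripotent cells, had 4 members with 38, 64, 55 and 37 midpoints in ES cells (−0.91, −1.53 to −0.30). Their level was 0.786 p.p.m. per window without Dox and 0.951, 0.801 and 0.507 after 3, 6 and 12 hours. Anti-MacroH2A2 gave 9 midpoints in ES cells and 36 in MEFs in the Nanog members, a log2 ratio of 1.22 (0.14 to 2.46), higher in MEFs. Over all 86 members of the list the ratio was 0.09. The 2 members near Tet1, which oxidizes methylcytosine, were lower in MEFs (21 and 15 midpoints, −1.27, −2.33 to −0.24). Of 26 list genes with midpoints in both libraries, only Nanog had an interval wholly above 0 and only Tet1 wholly below. Over all 2398 such genes, 57 had an interval wholly above 0 and 269 wholly below. Sox2, which pairs with Oct4 on DNA, had 3 members from 106 to 111 kb downstream of its TSS, with 19, 47, 32 and 26 midpoints (−0.97, −1.72 to −0.25). At 12 hours their level was 0.475 p.p.m. per window, against 0.524 without Dox. The single member near Pou5f1, the Oct4 gene, had 4, 21, 9 and 9 (−1.34, −2.65 to −0.15). Its level was 0.331 p.p.m. without Dox, 1.25 at 3 hours and nearly the same at 6 and 12 hours (0.525 and 0.493).

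Other signalling and chromatin genes of the list varied. The 7 Socs3 members had 65, 151, 134 and 93 midpoints (−0.82), the 4 Jarid2 members, next to a subunit gene of the Polycomb complex PRC2, 21, 77, 49 and 41 (−1.03), and the 2 Tet1 members 15, 56, 36 and 26 (−1.22). Per window, the Socs3 level was 0.769 p.p.m. without Dox and 0.728 at 12 hours. For Jarid2 these levels were 0.435 and 0.562, and for Tet1 0.621 and 0.712. Dppa3, which protects the maternal genome from demethylation, had 2 members with 10, 43, 24 and 15 (−1.64, −2.59 to −0.76). Their level was 0.414 p.p.m. per window without Dox and 0.411 at 12 hours. In MEFs, the same Dppa3 members were higher at 12 than at 3 hours (13, 23 and 46 midpoints, 0.96, 0.04 to 1.97), 1 of 27 genes with such an interval. Over all 2422 genes with MEF midpoints at both times, 52 had such an interval, so the list does not stand out here. The member near Lefty1, a Nodal inhibitor, went the other way in ES cells, with 6, 15, 17 and 35 midpoints (1.10, 0.19 to 2.08). The single members near Dnmt3b (0.47), Tdgf1 (0.05) and Mycn (0.66) were also above 0, each with an interval that includes 0. The 7 members near Tbx3 had an interval that includes 0 (−0.29, −0.76 to 0.17).

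**Figure D4:**
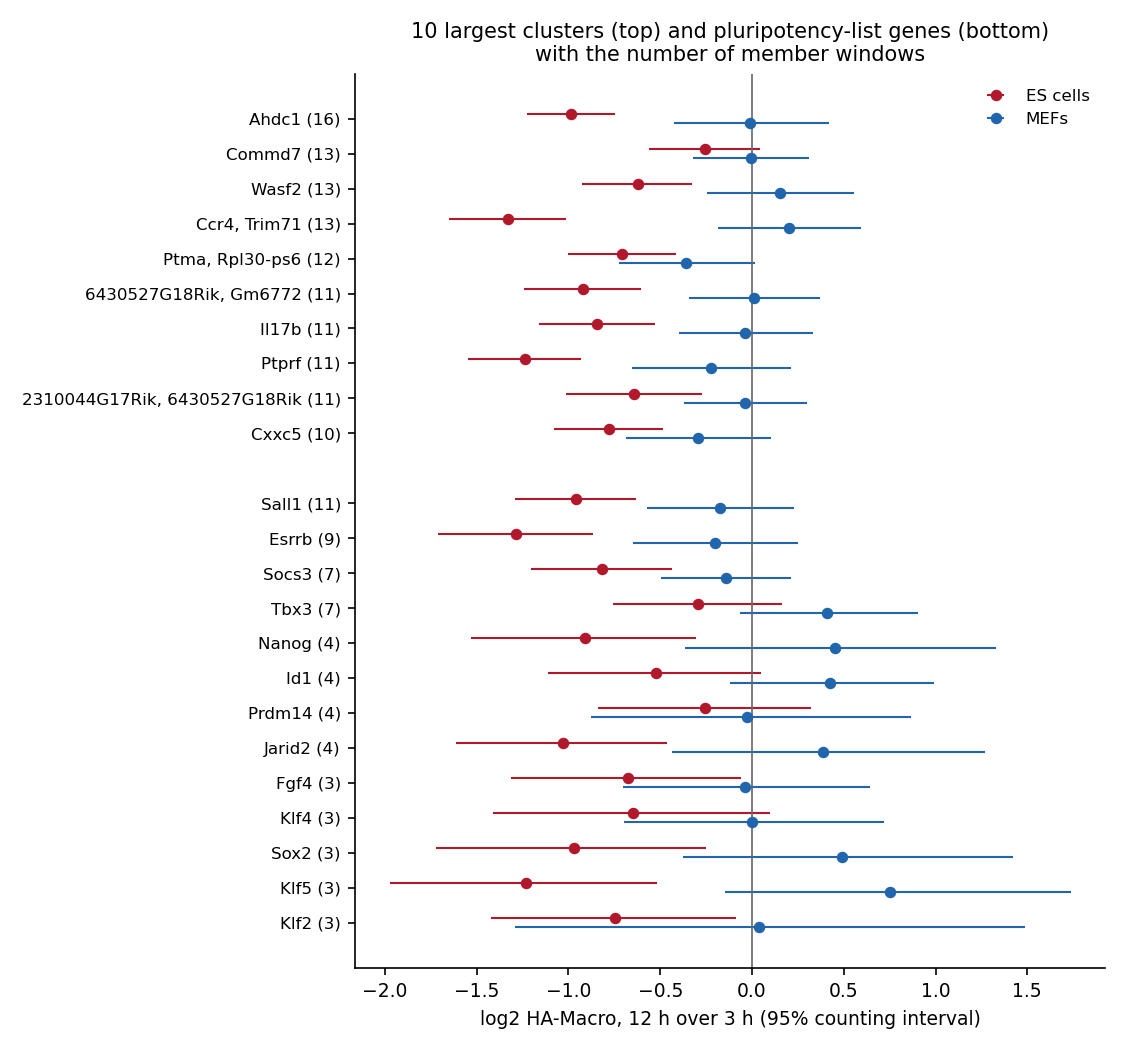
Log2 ratio of HA-Macro at 12 over 3 hours in ES cells (red) and MEFs (blue) with 95% counting intervals, for the 10 largest clusters and for pluripotency-list genes with 3 or more members, the number of members being in brackets. In ES cells 9 of the 10 clusters lie wholly below 0 (5 of 10 from 6 to 12 hours, not plotted), and in MEFs every interval includes 0.

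Of the 10 members with the most H3.3, those nearest Yes1, Kctd15, Socs3 and Rtl1 lay between genes. Those nearest Sept9, Fnbp1 and Gpr133 lay in introns of these genes and that nearest Gm3150 in an intron of Trappc9, and those nearest Actr2 and Ahdc1 overlapped exons, of Spred2 and Ahdc1. In all 10 the log2 ratio of 12 over 3 hours in ES cells was below 0, and in 4 of them the interval was wholly below 0. From 6 to 12 hours the scaled level was higher in those nearest Yes1 (22 and 33 midpoints), Actr2 (21 and 27), Gpr133 (4 and 8) and Gm3150 (11 and 16). It was lower in the rest. The exonic window within Spred2 (chr11:19921001-19922000), that nearest Actr2, held 12, 57, 21 and 27 midpoints in ES cells (−1.20, −1.91 to −0.51), and was higher at 12 than at 6 hours. The window nearest Kctd15 held 11, 23, 13 and 8 (−1.64, −3.01 to −0.43). The window with the most H3.3 of all, 102 kb from Yes1, held 9, 34, 22 and 33 (−0.16, −0.90 to 0.57), and its anti-MacroH2A2 level was lower in MEFs (8 midpoints in ES cells, 2 in MEFs).

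The 82 members that were higher at 12 than at 3 hours differed from the 1315 that were lower. Between genes lay 72.0% of the first and 35.1% of the second, 8.54% and 21.2% were exonic, and the mean anti-MacroH2A2 level was 15.2 and 6.53 midpoints in ES cells (26.0 and 8.45 in MEFs). The medians were closer, 6.5 and 5 in ES cells and 12 and 7 in MEFs. The octamer was found in 5.02% of the lower members (3.91% to 6.35%) and in 7.93% of the members that passed the minimum and were not lower (6.94% to 9.01%). For the other 5 motifs the intervals overlapped, as for the Esrrb site (4.72% and 4.77%) and the AP-1 site (20.8% and 21.2%).

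Runs of alternating purines and pyrimidines were more frequent among the higher members, which include the windows that prompted their count. Of the 6 members with the most HA-Macro at 12 hours in ES cells, singled out after their values were seen, 5 held runs of alternating purines and pyrimidines, as in repeats of CA, CG or TA. The 300 bases with the most HA-Macro ES 12 hour midpoints in the highest of them are given with runs of at least 20 alternating bases in capitals.
Spred2, chr11:19776421-19776720, in a window between genes, 47.9 kb from the TSS: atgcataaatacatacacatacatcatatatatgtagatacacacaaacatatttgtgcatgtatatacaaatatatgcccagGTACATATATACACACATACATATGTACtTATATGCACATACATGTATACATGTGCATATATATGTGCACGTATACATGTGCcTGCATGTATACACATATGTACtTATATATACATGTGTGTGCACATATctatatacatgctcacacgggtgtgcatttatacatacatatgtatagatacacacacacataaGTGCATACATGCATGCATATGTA

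In ES cells the Spred2 window held 17 HA-Macro midpoints without Dox and 34, 203 and 226 after 3, 6 and 12 hours, and in MEFs 36, 30 and 70. Its log2 ratio of 12 over 3 hours in ES cells was 2.61 (2.09 to 3.18). Distinct intervals made up 171 of the 226 midpoints at 12 hours. The window near Il21r (9, 18, 84 and 168 midpoints) and that in Sez6l (14, 46, 111 and 199) held 283 and 131 alternating bases, whereas the window near Csrnp3 (14, 47, 102 and 207) held none.

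Over all members, 53 (1.06%) held 100 or more bases in such runs, against 1.40% of distal windows, and they were 16 of the 82 higher members (19.5%) but 6 of the 1315 lower ones (0.456%). In these 53 the HA-Macro level in ES cells was 0.728 p.p.m. per window without Dox and 1.43, 2.65 and 2.90 after 3, 6 and 12 hours, and 1.50, 1.56 and 1.52 in MEFs. The ratio of 12 over 3 hours was 1.02 (0.92 to 1.12), that of 12 over 6 hours 0.13 (0.05 to 0.21), and in MEFs 0.02 (−0.10 to 0.14). The 53, and the 16 higher members among them, include the 5 high windows that prompted the count of such bases. The share of 19.5% is therefore partly built in. Without these 5 windows the other 48 had 0.65 (0.54 to 0.76) from 3 to 12 hours and 0.00305 (−0.09 to 0.10) from 6 to 12 hours. Reads that map to several places were put at 1 of them at random, and the part of this in repeats was not tested.

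Other distal windows were measured in the same way. The other 27361 distal windows with 100 or more such bases had 0.471, 0.443, 0.675 and 0.764 p.p.m. per window in ES cells, a ratio of 0.79 from 3 to 12 hours and 0.18 (0.17 to 0.19) from 6 to 12 hours, and in MEFs 0.11 from 3 to 12 hours. In the 4947 members with fewer alternating bases the ratio was −0.61. Windows with many alternating bases were thus higher at 12 than at 3 hours in members and in other distal windows, where the rest of the members were lower.

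**Figure D5:**
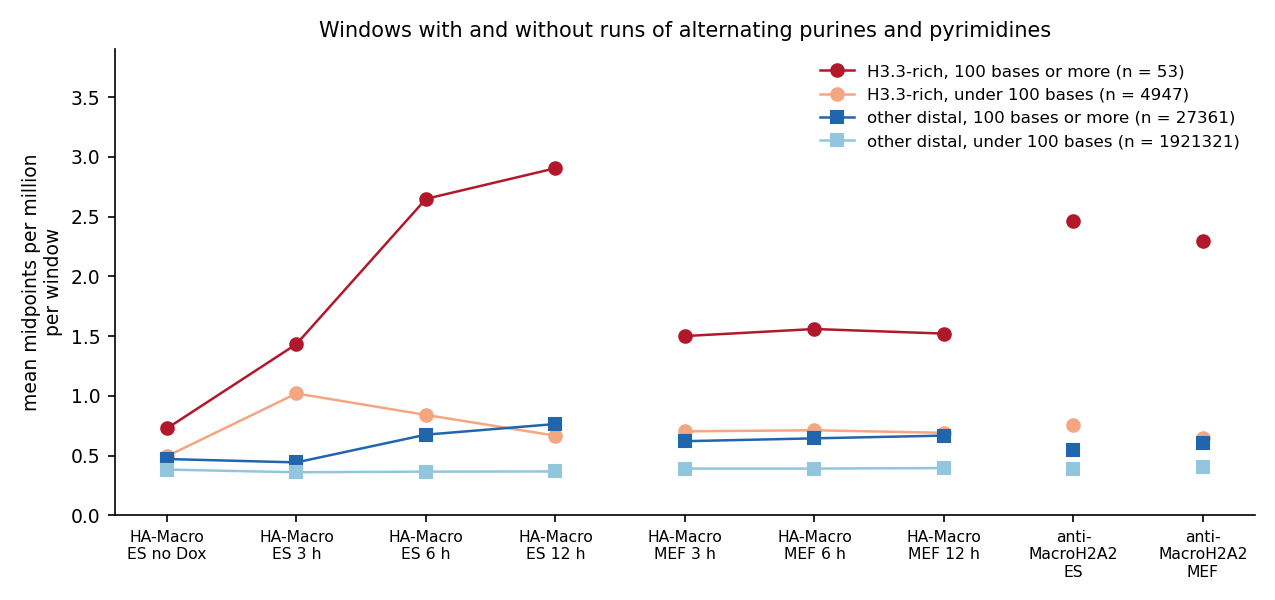
Mean p.p.m. per window in each HA-Macro and anti-MacroH2A2 library, for members (circles) and other distal windows (squares) with 100 or more or with fewer bases in alternating runs. In ES cells the 53 members with many such bases go from 1.43 at 3 hours to 2.90 at 12 hours, whereas the other 4947 members go from 1.02 to 0.667.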

How the data were processed

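Mapped reads of 11 ChIP-seq libraries were used as deposited by the authors. Alignment was to mm9 with Bowtie 1.0, per the labels. Identical reads were merged before it and still counted, a single mismatch was tolerated, and a read with several possible positions got a random one. Each aligned read was lengthened at its 3′ side. The deposited files give each read's first and last base only, without strand or score, with intervals of 150 bp for HA-Macro and 400 bp for HA-H3.3 and anti-MacroH2A2. The difference in length was met by counting each interval at its midpoint, 1 time per line. Midpoints were counted in windows of 1000 bp and divided by the library total on chromosomes 1 to 19. Comparisons with distal windows used the 1953679 ranked windows without unassigned bases, of which members are a part. Members and gene lists were chosen with earlier results of these data known, and the count of alternating bases after the sequences had been seen.

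Named were the 10 members with the most HA-H3.3, the 10 clusters with most members, and list genes with members, each window going to the protein-coding gene with the nearest TSS. Python 3.11.15, NumPy 2.4.6, pandas 2.3.3 and SciPy 1.17.1 were used, and the ratios were tested on simulated data. Alternatives changed the ranking, distance, window, scaling, counting and early library. Chromosomes X and Y were not analysed here beyond the Y share. The sequence and values of 1 member are not reported here.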

Additional observations from a re-analysis of the deposited data

How the results depend on the processing

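No alternative changed the sign of any of the 4 ratios over the members. The HA-Macro ES ratio of 12 over 3 hours (−0.57) became −0.52 with 1 member per cluster, −0.45 in 3 kb windows, −0.32 with 6 hours in place of 3 hours, −0.67 with gene starts as TSSs, −0.51 at over 10 kb from a TSS, −0.40 and −0.59 when ranked by H3.3 at 3 or at 6 hours only, −0.66 when scaled to the median distal 10 kb block, −0.48 with the top 0.1% by H3.3 left out, −0.50 and −0.66 for the top 10000 and top 2000, and −0.61 without members of 100 or more alternating bases. The ratio of 3 hours over no Dox (1.04) became 0.99 (1 per cluster), 0.47 (12 hours in place of 3 hours), 0.99 (3 kb), 0.79 (6 hours), 1.01 (distinct intervals), 1.09 (gene starts), 1.00 (over 10 kb), 0.99 (ranked at 3 hours), 1.34 (block scaling, which raised this ratio by 0.30 in every window), 0.99 (top 0.1% out), 1.00 (top 10000) and 1.10 (top 2000). The MEF ratio of 12 over 3 hours (−0.025) became −0.0434 with 6 hours in place of 3 hours, −0.0514 with gene starts and −0.00638 for the top 10000, and its interval included 0 under 5 alternatives. Anti-MacroH2A2 in MEFs over ES cells (−0.24) became −0.20 (3 kb), −0.34 (gene starts), −0.16 (over 10 kb), −0.38 and −0.20 (ranked at 3 or at 6 hours), −0.31 (block scaling), −0.20 (top 0.1% out) and −0.27 (top 2000). The share of members at least 2-fold lower at 12 hours (32.5%) became 12.54% from 6 hours. The cause of these differences was not tested. Of 68 alternatives for single clusters, genes and strata, 53 moved by less than the counting interval, 15 moved by more and 0 changed sign. Those, the one on alternating bases and the count of such bases were added after seeing the data. Depth limits single windows, since the median member held 5 to 16 midpoints in the HA-Macro and anti-MacroH2A2 libraries. No paired analysis was possible because there was 1 library per condition.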
